A study of Homo sapiens with 6 samples.

Results

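Hus1, Hus1b, Rad1 and Topbp1, 4 genes of the DNA damage checkpoint, were followed in a pooled screen of paired CRISPR knockouts. Hus1 and Rad1 encode subunits of the 9-1-1 clamp, Hus1b encodes a paralogue of HUS1, and the product of Topbp1 binds the loaded clamp. They were chosen by name: each guide pair was split into its guides, the guide number was removed, and a pair was kept where either gene was 1 of the 4. These 4 of the 459 genes in the library had 16 of its 1826 gene guides and occurred in 14817 of its 863546 guide pairs. The paralogues Hus1 and Hus1b met in 8 of these pairs and are described apart. The symbols are spelled in the mouse fashion although the cells are human, and the guide sequences were not used here, so the match of each guide to its human gene was not checked.

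The 9-1-1 clamp is a ring of RAD9A, HUS1 and RAD1 that the RAD17 loader places on DNA where single-stranded and double-stranded DNA meet. TOPBP1 binds the phosphorylated tail of RAD9 on the loaded clamp and activates the kinase ATR, which then signals through CHK1 to hold the cell cycle and protect replication forks; TOPBP1 also takes part in starting DNA replication. HUS1B and RAD9B are paralogues of clamp subunits that are best known from germ cells.

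In GRCh38.p14, HUS1 lies at chr7:47963288-47979615 and TOPBP1 at chr3:133600238-133661941. RAD1 lies at chr5:34905260-34915504, inside the annotated span of TTC23L. HUS1B lies at chr6:655939-657100, inside the span of EXOC2, and covers 1162 bases against 16328 for HUS1.

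The cells were eHAP iCas9, a haploid human line in which doxycycline turns on Cas9; all samples came from 1 clone (labelled cl#6) that is p53 null. The cells received the library at 0.15 virus particles per cell and were selected with puromycin. An induction of Cas9 for 7 days is given for the day 14 and irradiated samples, and no induction time is given for day 0. The 3 groups were day 0 controls, cells grown without radiation to day 14 (12 population doublings), and cells given 0.6 Gy of X-rays 24 hours after every split and collected on day 15 (10 population doublings). Irradiated cells thus differ from day 14 also in day and doublings, and from day 0 also in time in culture. These differences cannot be told apart from that in radiation. Each group had 2 replicates, and the labels do not say that these were separate cultures, so the p-values measure only the spread between these samples. The labels call the dose an LD20 in one place and an LD30 in another. All 3 groups carry the library in p53 null cells, so no group shows the clamp with p53 present.

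Each library held between 61185707 and 86587125 reads. Day 14 replicate 1 and irradiated replicate 2 stood apart: 51.3% and 46.7% of the member constructs had no reads there, against 1.06% to 5.62% in the other 4 libraries. These gaps overlapped: of the 7597 member constructs without reads in day 14 replicate 1, 71.1% also had none in irradiated replicate 2, against 21.0% of the 7220 that did have reads. Over all constructs the shares were 73.6% and 21.0%. Each unirradiated and irradiated endpoint therefore has 1 complete and 1 incomplete library.

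The first question was whether cells with guides against 1 of these genes became rarer. Cutting and loss of the gene product were not measured, so an unchanged level does not show that such a loss was tolerated. All constructs joining 1 of a gene's guides to a non-targeting guide were added up, and there were 121 for Hus1, 118 for Hus1b, 122 for Rad1 and 122 for Topbp1. Their reads are given per 1000 reads of the 878 constructs in which both guides are non-targeting, which serve as the unchanged cells. Many of these controls were themselves missing from the incomplete libraries. The share lacking any read was 69.7% for day 14 replicate 1 and 66.6% for irradiated replicate 2, against 3.08% to 16.1% elsewhere. The scale of both incomplete libraries therefore rests on fewer controls. The largest difference among the 4 was for Hus1 after irradiation. Rad1 and Hus1b stayed close to their day 0 levels, and Topbp1 was lower at day 14 and near its day 0 level in the irradiated cells.

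Hus1, the clamp subunit that joins RAD1 and RAD9 in the ring, was at 201.0 and 189.9 at day 0, 148.6 and 178.1 at day 14, and 150.7 and 119.9 in the irradiated cells. Both day 14 and both irradiated libraries were below both day 0 libraries, and the lowest value was that of the incomplete irradiated library. The log2 change from day 0 was -0.26 (SE 0.19, n = 2 per group) at day 14 and -0.53 (SE 0.19, 95% interval -0.92 to -0.14) after irradiation. The latter was rank 2 from the lowest of 459 genes, with an unadjusted edgeR p of 0.0106 and an adjusted p of 0.974, so it did not pass the test. Without the incomplete irradiated replicate 2 it was -0.38, and without day 14 replicate 1 the day 14 value was -0.13. Irradiated against day 14, Hus1 was at -0.27 (SE 0.19), a difference that misses the threshold.

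Topbp1, the ATR activator, was at 290.9 and 293.5 at day 0, 209.7 and 270.6 at day 14, and 301.2 and 270.2 in the irradiated cells. Both day 14 libraries were below both day 0 libraries, and the incomplete one was the lower; the irradiated libraries lay on either side of day 0. The log2 change was -0.28 (SE 0.17) at day 14, -0.03 (SE 0.17) after irradiation and 0.25 (SE 0.17) between the endpoints. Without day 14 replicate 1 the day 14 value was -0.11 and the value between the endpoints 0.08.

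Rad1, the remaining subunit of the ring, was at 183.5 and 193.5 at day 0, 212.3 and 199.6 at day 14, and 207.9 and 189.9 in the irradiated cells. Day 14 lay above day 0 with no overlap, while the irradiated libraries overlapped both. The log2 change was 0.13 (SE 0.17) at day 14 and 0.08 (SE 0.17) after irradiation. Hus1b was at 117.3 and 98.6 at day 0, 113.9 and 115.4 at day 14, and 107.8 and 107.2 in the irradiated cells, so every later library lay inside the range of day 0. Its log2 change was 0.09 (SE 0.21) at day 14 and -0.01 (SE 0.21) after irradiation, with a 95% interval of -0.44 to 0.43 for the latter.

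**Figure D1:**
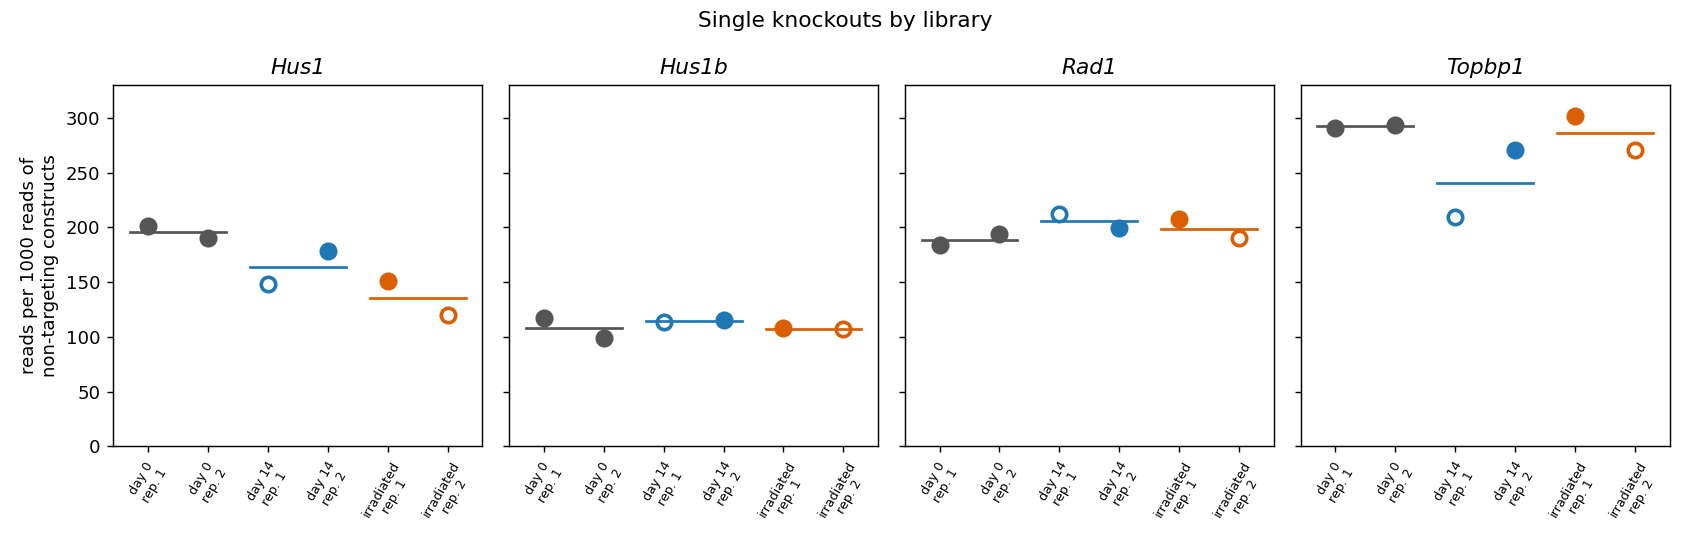
Reads of each gene's constructs with a non-targeting guide, per 1000 reads of constructs with 2 non-targeting guides, in the 6 libraries. Points are libraries, open points the 2 incomplete ones, and lines group means of n = 2; Hus1 is at 201.0 and 189.9 at day 0 and 150.7 and 119.9 in the irradiated cells, a difference that did not pass the test.

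None of the 4 single knockouts passed an adjusted p of 0.05 (edgeR quasi-likelihood test, two-sided, Benjamini-Hochberg over 459 genes) in any of the 3 comparisons, where percent called over all genes was 0 each time. DESeq2 also called 0 genes in each. At an unadjusted p under 0.05, 0 of the 4 passed at day 14 against day 0 (3.92% of all genes), 1 of 4, Hus1, in irradiated cells against day 0 (2.61%), and 0 of 4 between the endpoints (2.83%). Groups that did not overlap were common in the library. At day 14, 2 of the 4 genes lay below day 0 without overlap and 1 above it, where 12.2% and 18.3% of all genes did. Irradiated, 1 of 4 lay below day 0, where 19.6% of all genes did, and 0 of 4 above it, where 14.8% did. Against day 14, 1 of 4, Hus1b, lay below, where 17% did, and 0 of 4 above, where 8.06% did.

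The sums over all partners hold far more reads: between 151206 for Hus1b and 592295 for Topbp1 in a library, of which 1.68% to 2.95% came from the constructs with a non-targeting guide. They show a gene's guides averaged over all partner genes, as CPM (counts scaled to a common library size) after edgeR's TMM normalisation. A construct that targets a pair of genes counts for both, so the total used for scaling exceeds the reads of the library. These CPM are therefore on a lower scale than those of single guides below, and only the changes can be set side by side. Against day 0, Hus1 had the most negative log2 change of the 4 in this readout. It was at 2723 and 2571 at day 0, 2232 and 2437 at day 14, and 2352 and 2218 in the irradiated cells, and all 4 later libraries lay below both of day 0. The log2 change was -0.18 (SE 0.06, 95% interval -0.33 to -0.03) at day 14 and -0.21 (SE 0.06, 95% interval -0.37 to -0.06) after irradiation, ranks 6 and 2 from the lowest of 459. The adjusted edgeR p-values were 0.552 and 0.625, so neither passed. Without both incomplete libraries the values were -0.12 and -0.17, and without day 0 replicate 1 they were -0.14 and -0.17.

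Topbp1 was at 3503 and 3530 at day 0, 3341 and 3360.5 at day 14, and 3593 and 3540 in the irradiated cells. Day 14 lay below and irradiated above both day 0 libraries. The log2 change was -0.07 (SE 0.03) at day 14, 0.02 (SE 0.03) after irradiation and 0.09 (SE 0.03, 95% interval 0.01 to 0.17) between the endpoints, the last with an unadjusted p of 0.0315 and an adjusted edgeR p of 0.995. Rad1 was at 0.02 (SE 0.05) and 0.06 (SE 0.05) against day 0, and Hus1b at -0.11 (SE 0.09) and -0.14 (SE 0.09). Those of Hus1b were -0.021 and -0.059 without day 0 replicate 1, and -0.049 and -0.063 without both incomplete libraries.

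Over all partners 0 of the 4 genes passed the adjusted p in any comparison, as did 0% of all genes by edgeR, while DESeq2 called 2, 2 and 1 genes of the library and none of the 4. At an unadjusted p under 0.05, 1 of 4 passed in each comparison: Hus1 at day 14 (3.92% of all genes) and after irradiation (3.92%), and Topbp1 between the endpoints (2.61%). Without day 0 replicate 2, Hus1 had adjusted edgeR p-values of 0.0257 at day 14 and 0.0142 after irradiation, at log2 changes of -0.22 and -0.25, but 164 and 154 of the 459 genes were then called. Below day 0 without overlap lay 2 of 4 at day 14 (20.3% of all genes) and 1 of 4 after irradiation (18.3%), and above it 0 of 4 (20%) and 2 of 4 (20.5%). The irradiated cells lay above day 14 for 1 of 4 (17%) and below it for 0 of 4 (17.2%). The comparisons with day 0 share the same control libraries.

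**Figure D2:**
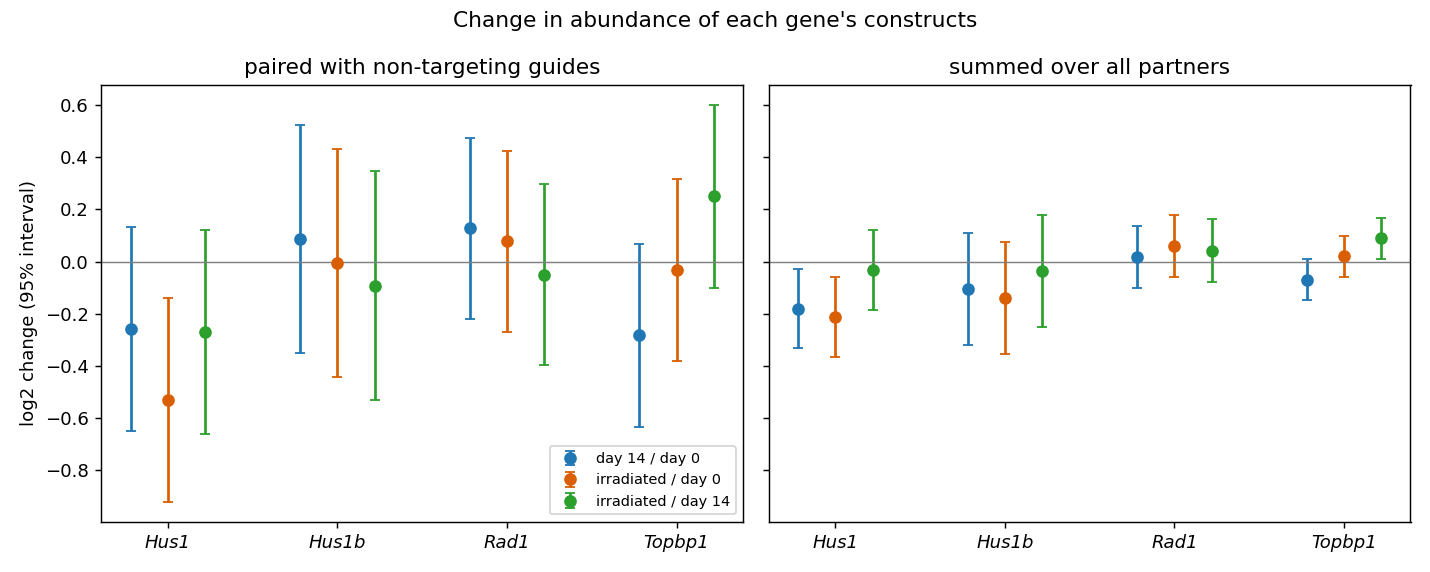
Log2 change of each gene's constructs in the 3 comparisons, paired with non-targeting guides (left) or summed over all partners (right). Points are edgeR estimates and bars 95% intervals (n = 2 per group); the interval lies below 0 for Hus1 after irradiation in both panels and for Hus1 at day 14 on the right, and above 0 for Topbp1 between the endpoints on the right.

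The values of single guides are given next. Guides 1 and 2 of every gene stand at the first position of a construct and guides 3 and 4 at the second, and each guide was summed over all partners, in CPM within its position after TMM. For Hus1, guides 3 and 4 lay below day 0 in all later libraries, while guide 1 did so only at day 14 and by little, and the libraries of guide 2 overlapped day 0. Whether the guides differ from each other was not tested. Guide 4 held 55.3% of the Hus1 reads at day 0 and so weighed most in the Hus1 sums there.

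Hus1 guide 4 was at 2919 and 2731 at day 0, 2301 and 2559 at day 14, and 2323 and 2141 in the irradiated cells. Its later libraries all lay below day 0, with a log2 change of -0.22 (SE 0.08) at day 14 and -0.34 (SE 0.08, 95% interval -0.53 to -0.15) after irradiation, and an adjusted edgeR p of 0.464 for the latter. Without both incomplete libraries it was at -0.14 and -0.28. Hus1 guide 3 was at 676 and 574 at day 0, 546 and 572 at day 14, and 560.4 and 519 in the irradiated cells, at -0.16 (SE 0.10) and -0.21 (SE 0.10). Here too no later library reached day 0, but the gap to day 0 replicate 2 was small at day 14. Hus1 guide 1 was at 427 and 432, then 423 and 399, then 439.7 and 445, at -0.06 (SE 0.07) and 0.04 (SE 0.07). Hus1 guide 2 was at -0.10 (SE 0.07) and -0.02 (SE 0.07), and its libraries ranged from 1117 to 1288. With guide 4 left out, an alternative chosen after its values were seen, Hus1 was at -0.20 and -0.24 against day 0 with non-targeting partners, and at -0.11 and -0.05 over all partners.

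The same guides with non-targeting partners show how few constructs the incomplete libraries measure. Hus1 guide 4 was at 96.3 and 92.2 per 1000 non-targeting reads at day 0, 68.7 and 81.4 at day 14, and 65.4 and 34.2 in the irradiated cells. Of its 25 such constructs, 16 had reads in irradiated replicate 2 and 25 in irradiated replicate 1. Hus1 guide 3 was at 28.6 and 19.0 at day 0, 23.5 and 21.2 in the complete later libraries, and 1.03 and 2.12 in the incomplete ones, where 7 and 5 of its 25 constructs had reads. Both guides were thus lowest in an incomplete library, and guide 4 was below day 0 in the complete ones as well.

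Topbp1 guide 2 was low at day 14 in both replicates. It was at 2484 and 2445 at day 0, 2101 and 2126 at day 14, and 2468 and 2466 in the irradiated cells. Day 14 stood clear of both other groups, which overlapped. The log2 change was -0.22 (SE 0.04, 95% interval -0.33 to -0.12) at day 14, 0.00 (SE 0.04) after irradiation and 0.22 (SE 0.04, 95% interval 0.12 to 0.33) between the endpoints. The adjusted edgeR p-values at day 14 and between the endpoints were 0.562 and 0.317, so neither passed; the endpoint values share the same day 14 libraries. The difference was as large in the complete libraries, at -0.21 and 0.21 without both incomplete ones. For the other Topbp1 guides, whose difference from guide 2 was not tested, at day 14 guide 1 was at -0.09 (SE 0.09), guide 3 at 0.04 (SE 0.05) and guide 4 at 0.07 (SE 0.09).

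Hus1b guides 3 and 4 were also lower than day 0 on average. Guide 3 was at 555 and 443 at day 0, 383.5 and 464 at day 14, and 464 and 334 in the irradiated cells, and guide 4 at 1150.5 and 988 (day 0), 899 and 989.6 (day 14), and 932 and 899 (irradiated). The groups of guide 3 overlapped, and those of guide 4 overlapped at day 14. The log2 changes after irradiation were -0.32 (SE 0.20) and -0.22 (SE 0.10). In both, day 0 replicate 1 was the highest of the 6 libraries, by 0.33 and 0.22 on the log2 scale over replicate 2, as it was for Hus1 guide 3 (0.23) and guide 4 (0.10). Of the 927 guides at the second position, 264 were more than 0.5 lower in day 0 replicate 1 than in replicate 2, none of them a member's, and the other 663 had a median of 0.12. Their part in the values of guides 3 and 4 was not tested. Without day 0 replicate 1, Hus1 guide 4 was at -0.29 after irradiation, Hus1 guide 3 at -0.09, Hus1b guide 4 at -0.11 and Hus1b guide 3 at -0.15. Without both incomplete libraries Hus1b guide 3 was at -0.098 and Hus1b guide 4 at -0.19 after irradiation. Hus1b guides 1 and 2 were within 0.09 of 0 in every comparison, and the Rad1 guides between -0.09 and 0.15.

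**Figure D3:**
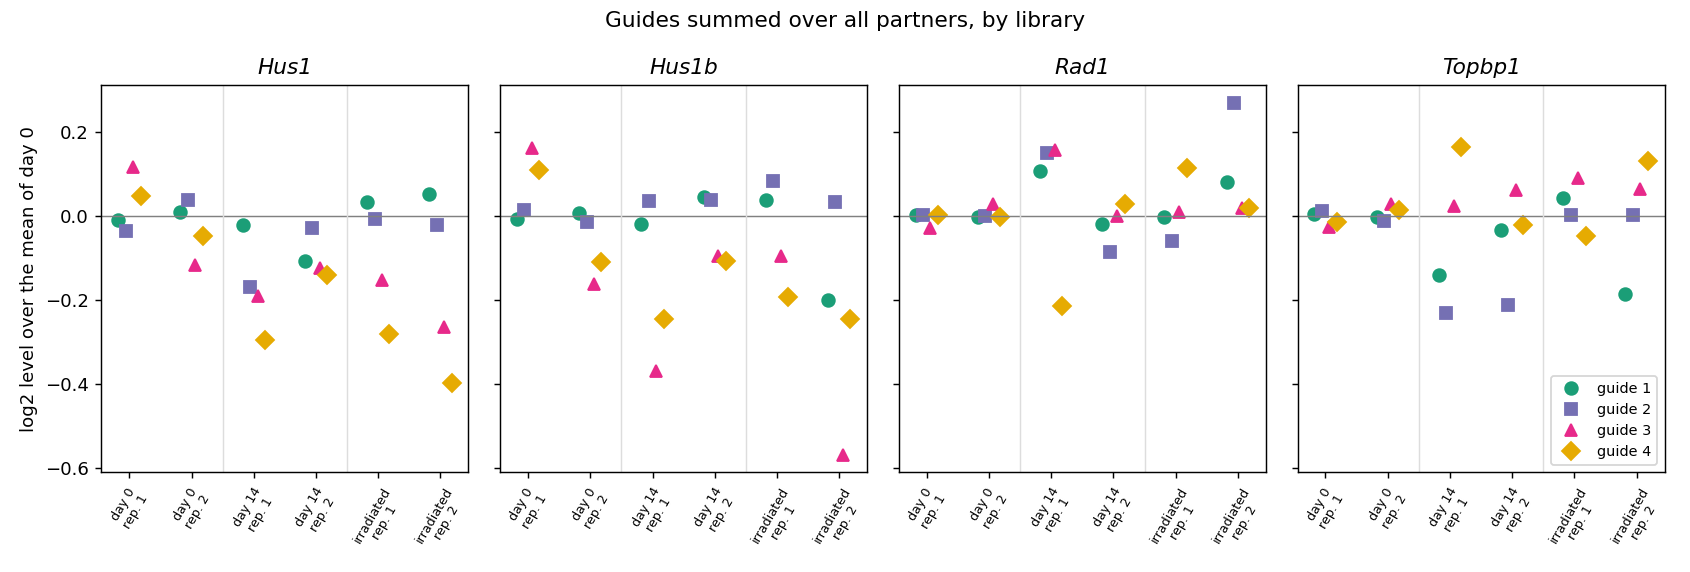
Log2 level of the 16 guides, summed over all partners, relative to the mean of day 0 in the 6 libraries. Points are single libraries, with 1 marker per guide. Hus1 guides 2, 3 and 4 and Hus1b guides 3 and 4 lie below 0 in all 4 later libraries. Topbp1 guide 2 is low in both day 14 libraries and near 0 in the irradiated ones.

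Of the 16 guides 0 passed the adjusted p in any comparison, as did 0% of the 1849 guides tested, non-targeting guides included. At an unadjusted p under 0.05, 2 of 16 passed at day 14 (4.27% of all guides), 1 of 16 after irradiation (3.08%) and 1 of 16 between the endpoints (4.49%): these were Topbp1 guide 2 and Hus1 guide 4, then Hus1 guide 4, then Topbp1 guide 2. Below day 0 without overlap lay 5 of 16 at day 14 (21.5% of all guides) and 3 of 16 after irradiation (18.3%). Above it lay 1 of 16 (19.5%) and 4 of 16 (18.2%). The irradiated cells lay above day 14 for 4 of 16 (15.1%) and below it for 0 of 16 (15.8%). DESeq2 called 24, 27 and 22 guides of the library in the 3 comparisons, among them Topbp1 guide 2 at day 14 and between the endpoints (adjusted DESeq2 p of 9.8e-07 and 5.1e-07) and Hus1 guide 4 after irradiation (adjusted DESeq2 p of 0.0252). Without day 0 replicate 2, edgeR called Hus1 guide 4 (adjusted p of 0.0434 at day 14 and 0.00334 after irradiation), Topbp1 guide 2 (0.024 at day 14) and Hus1b guide 4 (0.0268 after irradiation). In all, 313 guides were then called at day 14 and 311 after irradiation.

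Constructs with 2 guides against the same gene were few, 4 for each gene. Hus1 had 557 and 489 reads at day 0, 337 and 393 at day 14, and 437 and 439 in the irradiated cells, with a log2 change of -0.12 (SE 0.43) after irradiation. Topbp1 had 1121 and 1135, then 960 and 731, then 790 and 848, at -0.33 (SE 0.35). Rad1 had 573 and 277, then 183 and 204, then 292 and 200, at -0.64 (SE 0.68). Hus1b had 171 and 84 reads at day 0 and 133 and 130 in the complete later libraries, but 2 and 0 in the incomplete ones, and its 95% interval ran from -7.30 to 5.82. Of these 4, 0 passed the adjusted or the unadjusted threshold in any comparison, where edgeR and DESeq2 called 0% of 457 genes and 0.438%, 0.219% and 0.438% passed the unadjusted one. Changes of the size seen in the single knockouts were not detectable with these constructs. On simulated data this test recovered 0 of 50 genes lowered 16 fold, so its lack of calls does not bound larger changes either.

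The last question was whether losing 2 genes together differed from the sum of both losses. The interaction is the log2 change of a double knockout minus the summed effects of both genes, from an edgeR fit in which the additive effects of each library were an offset. It was measured for 105111 gene pairs, 1826 of them with a member. None of the 6 pairs among the 4 genes passed, and the intervals were wide.

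Hus1 with Hus1b, the paralogue pair, had 626 and 458 reads at day 0, 851 and 251 at day 14, and 381 and 885 in the irradiated cells, or 7.42 and 5.29, 13.7 and 4.10, and 5.33 and 10.2 CPM. The incomplete libraries were the 2 highest, and of the complete later ones day 14 was below day 0 and the irradiated one just above the lower day 0 library once scaled to depth. The interaction was 1.24 (95% interval -0.74 to 3.21) at day 14, 0.94 (-1.02 to 2.90) after irradiation and -0.30 (-2.24 to 1.65) between the endpoints. Without the incomplete libraries it was -0.37, 0.14 and 0.52. One construct, Hus1 guide 2 with Hus1b guide 3, had 354 and 440 reads in the incomplete libraries against 36 to 96 in the other 4. The other 7 constructs together had 570 and 390 reads at day 0, 497 and 215 at day 14, and 285 and 445 in the irradiated cells. Among these 7, Hus1b guide 2 with Hus1 guide 4 had 362 reads in day 14 replicate 1, against 50 to 190 in the other libraries. Hus1b guide 2 with Hus1 guide 3 had 117 reads there, against 4 to 40. An interaction of both paralogues was not detectable at this depth, and the intervals leave wide bounds.

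**Figure D4:**
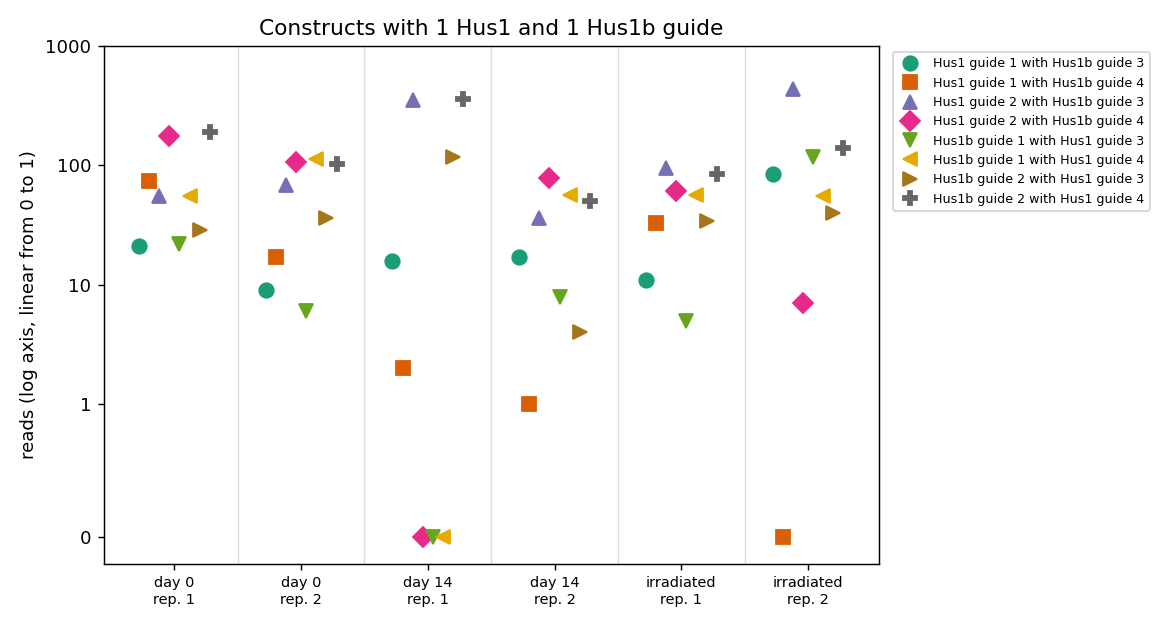
Reads of the 8 constructs that carry 1 Hus1 and 1 Hus1b guide, in the 6 libraries, on a log axis that is linear from 0 to 1. Points are constructs. Day 14 replicate 1 has reads for 5 of 8 and irradiated replicate 2 for 7 of 8. Hus1 guide 2 with Hus1b guide 3 reaches 354 and 440 reads in them. Hus1b guide 2 with Hus1 guide 4 reaches 362 reads in day 14 replicate 1.

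At day 14 the other pairs within the clamp were also highest in the incomplete library. Hus1 with Rad1 had 1076 and 950 reads at day 0, 1687 and 587 at day 14, and 690.0 and 1579 in the irradiated cells. Its interaction was 0.94 (95% interval -0.50 to 2.39) at day 14 and 0.57 (-0.87 to 2.00) after irradiation, and -0.09 and -0.04 without the incomplete libraries. Hus1b with Rad1 was at 1.27 (-0.26 to 2.80) at day 14 and 0.24 (-1.27 to 1.75) after irradiation, and 0.16 and 0.32 without them.

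Hus1 with Topbp1 joins a clamp subunit to the protein that reads the clamp. It had 1871 and 1457 reads at day 0, 474 and 1065 at day 14, and 862 and 413 in the irradiated cells. Both irradiated libraries were below day 0, and their reads stood at -0.36 and -1.63 on the log2 scale relative to the additive expectation, against 0.17 and -0.01 at day 0. The interaction after irradiation was -0.95 (95% interval -2.25 to 0.35, unadjusted edgeR p of 0.127), and -0.45 without the incomplete libraries, with an adjusted edgeR p of 0.300 there. Between the endpoints it was -0.61 (-1.90 to 0.69), and -0.52 without them. Hus1b with Topbp1 was at -0.49 (-1.74 to 0.77) after irradiation and Rad1 with Topbp1 at -0.23 (-1.05 to 0.60), and 0.03 and -0.35 without the incomplete libraries.

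**Figure D5:**
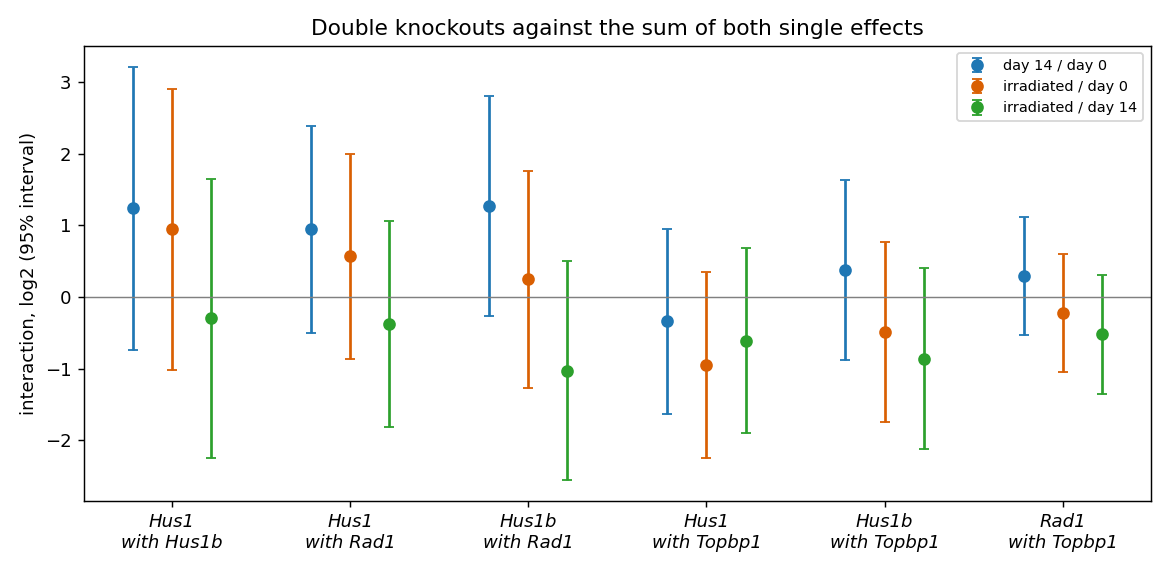
Interaction of the 6 pairs among the 4 genes in the 3 comparisons, as log2 change beyond the sum of both gene effects. Points are edgeR estimates and bars 95% intervals over all 6 libraries; every interval contains 0.

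Each member was paired with 458 other genes. Of the 1826 pairs with a member, 0 passed the adjusted p in any comparison, as did 0% of all pairs. On simulated data this test recovered only 2 of 50 pairs lowered 16 fold, so even large losses would rarely be called. At an unadjusted p under 0.05, 6 passed at day 14, 11 after irradiation and 19 between the endpoints, where 0.421%, 0.354% and 0.832% of all pairs did. By limma with a trend 0, 1 and 1 pairs of the library passed, none with a member. The median interaction was between -0.0042 and 0.071 for each member in each comparison, against 0.0098, 0.018 and 0.0048 over all pairs, and the interval's median width on each side ran from 0.97 for Topbp1 to 1.74 for Hus1b.

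The pairs of smallest p with Hus1 after irradiation included Trp53, which encodes p53, a protein the line is labelled as lacking. Hus1 with Trp53 had 661 and 815 reads at day 0, 345 and 563 at day 14, and 1103 and 1867 in the irradiated cells. Its interaction was 1.20 (95% interval 0.27 to 2.13) against day 0 and 1.38 (0.44 to 2.31) against day 14. In irradiated replicate 2, 1443 of the 1867 reads came from 1 construct. Hus1b with Rad51d, a gene of homologous recombination, had 705 and 881 reads at day 0, 1518 and 898 at day 14, and 2152 and 1403 in the irradiated cells, at 1.46 (0.30 to 2.63) and 1.67 (0.50 to 2.84) against day 0. The largest construct of each library held 1480 of the 2152 reads and 1005 of the 1518.

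Rad1 with Ap5s1 had the smallest unadjusted p of any Rad1 pair between the endpoints, 0.006 by edgeR. It had 980.0 and 1300.0 reads at day 0, 1373 and 1210 at day 14, and 614 and 578 in the irradiated cells. Both irradiated libraries were the lowest. At day 14 the largest construct of each library held 942 of the 1373 and 691 of the 1210 reads. The pair's interaction between the endpoints was -1.42 (95% interval -2.27 to -0.57). Rad1 with Pttg1, the gene of securin, had 983 and 1054, then 778 and 729, then 1350.0 and 2330.0 reads, at 1.10 (0.28 to 1.92) against day 0 and 0.93 (0.11 to 1.75) against day 14. Without both incomplete libraries Rad1 with Ap5s1 was at -1.21 between the endpoints, and against day 0 the irradiated cells had Hus1b with Rad51d at 1.90, Hus1 with Trp53 at 0.87 and Rad1 with Pttg1 at 0.78, all then past an adjusted edgeR p of 0.05. Hus1b with Rad51d at day 14 was at 0.73 and, between the endpoints, Hus1 with Trp53 at 0.84 and Rad1 with Pttg1 at 0.61, none of them past it. Each endpoint is then a single library and the spread rests on day 0, and 3, 25 and 6 member pairs of 167, 1261 and 215 in all were called in the 3 comparisons.

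Not every other pair named for the smallest p of a member came nearer to 0. Hus1b with Ascc3 was at 1.25 (95% interval 0.25 to 2.25) after irradiation and reached 1.43 with 1 library left out. In irradiated replicates 1 and 2 the pair's largest construct in each library held 981 of 1383 and 1038 of 1038 reads. The pairs that follow had interactions nearer to 0 without the incomplete libraries. Topbp1 with Xrcc5, the gene of Ku80 in end joining, had 1498 and 1323 reads at day 0, 1048 and 1008 at day 14, and 1219 and 4815 in the irradiated cells, and the incomplete irradiated library was the highest. Its interaction after irradiation was 1.26 (95% interval -0.079 to 2.60), and 0.099 without them. Hus1b with Nbn had 298 and 288 reads at day 0 and 1149 and 308 at day 14, with an interaction at day 14 of 2.44 (0.47 to 4.42) and, without them, 0.74. Hus1 with Uchl5 was at -1.96 (-3.60 to -0.32) between the endpoints and -0.43 without them, and Topbp1 with Ascc1 at -1.52 (-2.88 to -0.17) and -0.45. Topbp1 with Eya4 had 841 and 763 reads at day 0, 559 and 622 at day 14, and 998 and 1455 in the irradiated cells, where both were the highest. It was at 0.88 (0.040 to 1.72) after irradiation and 0.66 without them, with an adjusted edgeR p of 0.125 there.

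The clamp's other parts were in the library as well. Rad9a, the third subunit of the ring, was at 0.19 (SE 0.18) at day 14 and 0.08 (SE 0.18) after irradiation as a single knockout, Rad9b, its paralogue, at 0.14 (SE 0.19) and -0.03 (SE 0.19), and the clamp loader Rad17 at -0.01 (SE 0.20) and 0.10 (SE 0.20). In irradiated cells Rad9a was at 190.7 and 236.4 per 1000 non-targeting reads against 211.8 and 191.4 at day 0, so its groups overlapped, as did those of Rad17 at 137.4 and 188.1 against 156.9 and 146.7. The 4 members' pairs with Rad9a, Rad9b, Rad17, Atr, Atrip, Chek1, Etaa1 and Clspn, 32 in all, had interactions from -1.24 to 1.57 at day 14 and -0.91 to 1.58 after irradiation, and 0 of 32 passed an unadjusted p of 0.05 in any comparison. In the pair at each end of these ranges the incomplete library stood farthest from the additive expectation. Hus1 with Rad17, at -1.24, had 21 reads in day 14 replicate 1 and stood at -4.44 relative to the additive expectation there, against -0.53 in replicate 2. Hus1b with Rad9b, at 1.57, stood at 1.77 in day 14 replicate 1 against 0.18 in replicate 2. Atrip with Rad1, at 1.58, had 3196 reads in irradiated replicate 2 and stood at 1.91 there, against -0.27 in replicate 1. Rad17 with Topbp1, at -0.91, had 176 reads in irradiated replicate 2 and stood at -2.69 there, against -0.07 in replicate 1.

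Among 20 listed genes of clamp loading and ATR signalling, 12 were in the library. As single knockouts 7 of 12 were lower at day 14 (median -0.01) and 8 of 12 after irradiation (median -0.05), against 36.6% and 47.1% of all genes with medians of 0.06 and 0.01. None passed the adjusted p. Chek1, the kinase ATR activates, was at -0.49 (SE 0.28) and -0.33 (SE 0.28), and Clspn, its adaptor claspin, at -0.26 (SE 0.20) after irradiation. Timeless, a fork protection factor, was at 0.19 (SE 0.16) at day 14 and at -0.34 (SE 0.16) between the endpoints, the latter with an unadjusted edgeR p of 0.048. Over all partners Timeless was at -0.07 (SE 0.04) between the endpoints and Atr at 0.12 (SE 0.05, unadjusted edgeR p of 0.041). In that readout 5 of 12 were lower at day 14 and 3 of 12 after irradiation. The medians were 0.02 and 0.02, so the list's median differed in sign between the readouts.

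Of 16 listed partners of TOPBP1 12 were in the library, and 6 of 12 and 5 of 12 were lower as single knockouts, with medians of 0.0058 and 0.03. Over all partners 9 of 12 were lower in both comparisons with day 0, with medians of -0.03 and -0.02, against 47.9% and 52.1% of all genes. As single knockouts at day 14, Nbn, of the MRN complex, was at -0.43 (SE 0.26), Gins4, a subunit of the replicative helicase, at 0.34 (SE 0.22), and the helicase Brip1 at 0.27 (SE 0.19). After irradiation the smallest p belonged to 3 lower genes: Gins2, of the same complex as Gins4, at -0.49 (SE 0.24), Cdc45, another subunit of the replicative helicase, at -0.27 (SE 0.19), and Recql4, a helicase, at -0.30 (SE 0.24). All 14 listed repair enzymes described as bound by the clamp were in the library, and 5 of 14 and 6 of 14 were lower, with medians of 0.09 and 0.07. As single knockouts after irradiation, Msh6, a mismatch repair protein, was at 0.34 (SE 0.18) and Ogg1, a DNA glycosylase, at -0.30 (SE 0.21). None of these genes passed the adjusted p in either list.

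The genes most like each member over the 6 libraries, by Pearson's r of the log2 level over all partners, were Dclre1c (0.99), Smc1a (0.98) and Faap20 (0.98) for Hus1, and Fmn2, Hist3h2a and Usp7 (1.00 to 0.98) for Hus1b. For Rad1 they were Pif1, Psmd14 and Polb (0.98 to 0.92), and for Topbp1 Ppp4r2, Rnf111 and Usp1 (0.97 to 0.96). Among the members, Hus1 and Hus1b had an r of 0.90, rank 23 of 458 for Hus1, while Rad1 was opposed to both, at -0.77 and -0.84. These are descriptions over 6 libraries, in each of which all genes share the depth and, in the incomplete ones, the loss of constructs. Replicate deviations at day 14 and in irradiated cells had a correlation of -0.67 over 459 genes, so that both incomplete libraries deviated the same way.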

How the data were processed

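The authors deposited read counts per guide pair for each library; the alignment tool named in the submitters' processing notes is HISAT2 2.1.0, with the build hg38. Filters are not given in the sources used here. Counts were summed per gene, guide, same-gene construct and gene pair. Sums with non-targeting guides were scaled by the total of the 878 constructs with 2 non-targeting guides, and sums over all partners by TMM. Each of the 5 kinds of sum was tested with edgeR 4.0.16 (quasi-likelihood test, all 6 libraries in one fit, Benjamini-Hochberg over all features, threshold 0.05) at a mean count of at least 20, or 2000 for sums over all partners. Pair offsets came from an additive median fit with a prior count of 2. The intervals given are edgeR's and cover the spread between libraries. DESeq2 1.42.0 and limma 3.58.1 were alternatives. Tests were checked on simulated data for irradiated cells against day 0, with 50 features lowered at each of 1.5, 2, 4 and 16 fold. At 1.5 fold, 41 of 50 single knockouts, 47 of 50 guides and 50 of 50 genes over all partners were recovered. Of the unchanged features, 10 of 259, 5 of 1649 and 6 of 259 were called. Many features were lowered at once there, which eases the adjusted threshold, and the loss of constructs in the incomplete libraries was not simulated. The recovered shares therefore do not give the power for 1 changed gene in these data. Same-gene constructs recovered 0 of 50 at every fold, and gene pairs 0, 0, 1 and 2 of 50. Of the deposited columns, 2 matched no sample and were left out. Members and gene lists were chosen with earlier results of these data known. Named were the members, their guides and pairs among them, the 2 pairs of smallest p per member and comparison, up to 3 genes of smallest p per list, and the 3 genes most like each member; some that this rule names are not reported here. Replicate numbers did not pair the samples.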

Additional observations from a re-analysis of the deposited data

How the results depend on the processing

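None of the 4 genes, their 16 guides or their pairs was called by the main tests, so the alternatives could only add calls; the cause of each added call was not tested. DESeq2 called 24, 27 and 22 guides of the library at day 14, after irradiation and between the endpoints, with 1 member guide each time, and 2, 2 and 1 genes over all partners. With each position fitted apart 2, 1 and 10 guides were called, with scaling by the non-targeting guides 2 after irradiation and 2 between the endpoints, and without a filter 1 between the endpoints. By limma 1 and 1 gene pairs were called after irradiation and between the endpoints. Without both incomplete libraries, where the spread rests on day 0, 1 single knockout at day 14 and 3 after irradiation, 1 gene of the same-gene constructs after irradiation, and 167, 1261 and 215 gene pairs in the 3 comparisons were called, 3, 25 and 6 of them with a member. Fitting each position apart, the median effect over partners and leaving out Hus1 guide 4 were chosen after seeing the data. Depth and spread left a median interval of 2.18 on each side for same-gene constructs and 1.34 for gene pairs at day 14.

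Leaving out each library in turn, the guides called ran from 0 to 313 at day 14, 0 to 311 after irradiation and 0 to 11 between the endpoints, and the member guides from 0 to 2 in both comparisons with day 0. Genes over all partners ran from 0 to 164, 0 to 154 and 0 to 1, with members from 0 to 1 in both comparisons with day 0. Single knockouts called at day 14 ran from 0 to 21, and gene pairs from 0 to 1 after irradiation and between the endpoints. The highest counts of guides and genes against day 0 came without day 0 replicate 2.

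Replicate numbers did not pair the samples: deviations of same-numbered day 14 and irradiated libraries had correlations of -0.54, -0.67 and -0.58 in single knockouts, genes over all partners and guides. With the replicate number as a block 1 guide and 1 gene pair were called after irradiation and 1 of each between the endpoints, and the same-gene constructs of Hus1b were at 0.18 at day 14 in place of -0.45. A crossed block of day 14 and irradiated libraries, added after the data were seen, called 0 features in single knockouts, guides and genes over all partners.

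The following values changed sign and were called in neither fit; the cause was not tested. Without both incomplete libraries, among genes over all partners, day 14 against day 0, Rad1 was at -0.021. Among guides, irradiated against day 0, Hus1b guide 1 was at 0.037, Rad1 guide 1 at -0.0041, Rad1 guide 2 at -0.062, Topbp1 guide 1 at 0.041 and Topbp1 guide 4 at -0.042. Among guides, irradiated against day 14, Rad1 guide 1 was at 0.017, Hus1b guide 3 at 0.0066 and Rad1 guide 3 at 0.015. Among guides, day 14 against day 0, Rad1 guide 1 was at -0.021, Rad1 guide 2 at -0.087, Rad1 guide 3 at -0.0014, Rad1 guide 4 at 0.028 and Topbp1 guide 4 at -0.022. Among gene pairs, irradiated against day 14, Hus1b with Rad1 was at 0.16, Hus1 with Hus1b at 0.52 and Hus1 with Rad1 at 0.049. Among gene pairs, irradiated against day 0, Hus1b with Topbp1 was at 0.034 and Hus1 with Rad1 at -0.040. Among gene pairs, day 14 against day 0, Hus1 with Hus1b was at -0.37, Hus1 with Rad1 at -0.089, Hus1 with Topbp1 at 0.079 and Rad1 with Topbp1 at -0.074. Among same-gene constructs, irradiated against day 0, Hus1b was at 0.26. Among same-gene constructs, day 14 against day 0, Hus1b was at 0.53 and Topbp1 at -0.15. Among same-gene constructs, irradiated against day 14, Rad1 was at 0.28. Among single knockouts, irradiated against day 14, Rad1 was at 0.059. Among single knockouts, irradiated against day 0, Topbp1 was at 0.044. Scaled by the non-targeting guides of the position, among guides, irradiated against day 0, Hus1 guide 2 was at 0.031, Rad1 guide 3 at -0.062, Rad1 guide 4 at -0.013 and Topbp1 guide 4 at -0.032. Among guides, irradiated against day 14, Rad1 guide 1 was at 0.016. Among guides, day 14 against day 0, Topbp1 guide 3 was at -0.012. Scaled by total reads, among guides, irradiated against day 0, Topbp1 guide 2 was at -0.0027, Rad1 guide 3 at -0.032 and Topbp1 guide 4 at -0.0029. Among guides, day 14 against day 0, Topbp1 guide 3 was at -0.0060. Among single knockouts, irradiated against day 14, Rad1 was at 0.024. As a median effect over partners, among genes over all partners, irradiated against day 14, Hus1b was at 0.00044 and Rad1 at -0.017. Scaled by TMM, among same-gene constructs, irradiated against day 14, Rad1 was at 0.023. Among single knockouts, irradiated against day 14, Rad1 was at 0.0083. Without its guide 4, among genes over all partners, irradiated against day 14, Hus1 was at 0.060. Without a filter on low counts, among guides, irradiated against day 0, Topbp1 guide 2 was at -0.0012. Scaled by the non-targeting constructs, among genes over all partners, irradiated against day 14, Rad1 was at -0.038. By DESeq2, among single knockouts, irradiated against day 14, Rad1 was at 0.0058.

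With 1 library left out, values that changed sign ran as follows. Among genes over all partners, irradiated against day 14, Hus1 ran from -0.095 to 0.030 and Hus1b from -0.12 to 0.042. Among genes over all partners, day 14 against day 0, Rad1 ran from -0.017 to 0.060. Among guides, irradiated against day 0, Hus1 guide 2 ran from -0.052 to 0.022, Hus1b guide 1 from -0.20 to 0.037, Rad1 guide 1 from -0.0041 to 0.081, Rad1 guide 2 from -0.062 to 0.27, Topbp1 guide 1 from -0.19 to 0.041, Topbp1 guide 2 from -0.010 to 0.013, Rad1 guide 3 from -0.013 to 0.049 and Topbp1 guide 4 from -0.042 to 0.13. Among guides, irradiated against day 14, Hus1b guide 1 ran from -0.21 to 0.023, Hus1b guide 2 from -0.0053 to 0.043, Rad1 guide 1 from -0.066 to 0.061, Rad1 guide 2 from -0.10 to 0.23, Topbp1 guide 1 from -0.10 to 0.13, Hus1 guide 3 from -0.11 to 0.012, Hus1b guide 3 from -0.34 to 0.14, Hus1b guide 4 from -0.11 to 0.026, Rad1 guide 3 from -0.14 to 0.016 and Topbp1 guide 4 from -0.12 to 0.067. Among guides, day 14 against day 0, Hus1b guide 1 ran from -0.019 to 0.045, Rad1 guide 1 from -0.021 to 0.11, Rad1 guide 2 from -0.087 to 0.15, Rad1 guide 3 from -0.0014 to 0.16, Rad1 guide 4 from -0.22 to 0.028 and Topbp1 guide 4 from -0.022 to 0.16. Among gene pairs, irradiated against day 14, Hus1b with Rad1 ran from -1.65 to 0.085, Hus1 with Hus1b from -1.09 to 1.31 and Hus1 with Rad1 from -0.98 to 0.65. Among gene pairs, irradiated against day 0, Hus1b with Topbp1 ran from -1.31 to 0.034 and Hus1 with Rad1 from -0.040 to 0.99. Among gene pairs, day 14 against day 0, Hus1 with Hus1b ran from -0.37 to 1.98, Hus1 with Rad1 from -0.089 to 1.54, Hus1 with Topbp1 from -0.93 to 0.079 and Rad1 with Topbp1 from -0.074 to 0.59. Among same-gene constructs, irradiated against day 0, Hus1 ran from -0.24 to 0.012, Hus1b from -9.80 to 0.26 and Rad1 from -1.09 to 0.020. Among same-gene constructs, day 14 against day 0, Hus1 ran from -0.083 to 0.17, Hus1b from -5.30 to 0.53, Rad1 from -1.04 to 0.074 and Topbp1 from -0.15 to 0.41. Among same-gene constructs, irradiated against day 14, Hus1b ran from -9.35 to 4.55 and Rad1 from -0.48 to 0.28. Among single knockouts, irradiated against day 0, Hus1b ran from -0.13 to 0.13 and Topbp1 from -0.11 to 0.044. Among single knockouts, day 14 against day 0, Hus1b ran from -0.033 to 0.22. Among single knockouts, irradiated against day 14, Rad1 ran from -0.12 to 0.014.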
